A study of Mus musculus with 117 samples.

Results

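The regions described here are stretches of the mouse autosomes where hepatocytes of the 9 inbred strains carried only 2 of 14 chromatin states, state 6 in some strains and state 14 in the others. The genome was read in bins of 200 bp. A bin was taken where every strain had state 6 or state 14 and each state was found in at least 3 strains, and adjacent bins with the same strains in state 6 were merged. This gave 73155 regions made of 84847 bins, which is 0.689% of the 12313718 autosomal bins, or 16.97 Mb. The states themselves chose the regions, so their number, lengths and strain patterns are given as a description and with no test.

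The hepatocytes, the cells that make up most of the liver, came from females aged 12 weeks, with no treatment named in the labels. The laboratory strains were C57BL/6J, A/J, 129S1/SvImJ, DBA/2J, NZO/HlLtJ and NOD/ShiLtJ, and the wild-derived strains WSB/EiJ, PWK/PhJ and CAST/EiJ. Each strain had ChIP-seq libraries for 4 histone marks (H3K27me3, H3K27ac, H3K4me1 and H3K4me3) from 3 mice and 1 input library, in all 117 libraries. All 13 libraries of a strain enter 1 deposited segmentation, so each strain gives 1 value, the spread within a strain is unknown, and SDs below are over the 9 strains. All are inbred, and none is described as carrying an engineered allele. Strains share ancestry, and every bin counts for several strains at once, so the 9 values of a test are not drawn from separate places in the genome.

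In ChIP-seq, an antibody pulls down DNA wrapped around histones that carry a given chemical mark. H3K4me3 marks active or poised promoters, H3K4me1 marks enhancers and the edges of promoters, H3K27ac marks active promoters and enhancers, and H3K27me3 is laid down by the Polycomb complex over silenced genes. A segmentation reads the marks together and gives each stretch of the genome the number of the combination it carries. The combination of marks behind states 6 and 14 is not given in the sources used here, so both numbers serve as names only. State 14 was the most widespread state, with 74.8% of the autosomal bins in WSB/EiJ to 78.6% in DBA/2J, whereas state 6 held 2.56% ± 0.253 (SD, n = 9), from 2.24% in 129S1/SvImJ to 3.04% in A/J. Of a strain's state 6 bins, 12.96% ± 2.33 lay in the switching regions. A switch is thus a place where 3 to 6 strains had this scarcer state and the rest had the most common one.

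Lists of genes, chosen with earlier results of these data known, were read beside the labelled cell type. The measure was the share of the windows within 1 kb of start sites that was not in state 14. That share was 99.9% ± 0.278 for 20 genes of secreted liver proteins and 97.8% ± 1.12 for 20 genes of hepatocyte transcription factors. For 15 marker genes of other liver cell types it was 65.4% ± 6.38, from 53.9% to 71.1%, and state 13 covered 26.2% of those windows. For 18 widely expressed genes it was 99.6% ± 0.456, and for 19 developmental regulators it was 100%. A share near 100% was thus not particular to hepatocyte genes, and this measure cannot check the cell type. State 13 covered 50.9% of the windows of developmental regulators. It covered 0% of those of secreted liver proteins, hepatocyte transcription factors and widely expressed genes. Fewer cells of a type and less of a mark per cell cannot be told apart in such bulk chromatin.

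Few switches lay at start sites. Within 1 kb of a protein-coding start lay 0.481% of the switching bins, against 1.48% of all autosomal bins. The promoters shown here are protein-coding ones wholly in switching bins of 1 strain pattern, and that of 1 list gene. Of 31396 autosomal promoter windows, taken from 250 bases before to 50 bases after a start, 247 held a switching bin (0.787%), and of the 20085 windows of protein-coding genes 93 did (0.463%). Such a window spans more than 1 bin, and 0.689% of all autosomal bins were switching bins. These window shares are therefore not a result about promoters. In 3 windows of protein-coding genes, all bins were switching bins of 1 strain pattern. They belong to Gpr22, an orphan G protein-coupled receptor, to Serpinb1c, a serine protease inhibitor of clade B, and to Thrb, a thyroid hormone receptor. Ppargc1a, the coactivator PGC-1 alpha that drives genes of gluconeogenesis and mitochondria, is added from 8 lists of liver and reference genes. It was the only gene of these lists with a switching bin within 1 kb of a listed start. The Thrb start, chr14:17981644, lies inside the gene, which spans 17659225 to 18040097 on the plus strand. The Ppargc1a start, chr5:51567725, lies inside a gene of the minus strand that spans 51454249 to 52115853. Neither is the start at the outer end of its gene. The 250 bases before each start are printed 5′ to 3′ on the strand of the gene, from RefSeq on build GRCm38.p6. Capitals mark the letters AGGTCA, the core of sites that nuclear receptors bind.

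Gpr22, chr12:31713884-31714133, minus strand: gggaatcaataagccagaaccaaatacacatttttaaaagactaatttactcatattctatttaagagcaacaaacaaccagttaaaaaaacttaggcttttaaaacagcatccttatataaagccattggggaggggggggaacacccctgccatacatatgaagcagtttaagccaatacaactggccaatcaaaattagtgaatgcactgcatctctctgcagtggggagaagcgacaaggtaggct
Serpinb1c, chr13:32898141-32898390, minus strand: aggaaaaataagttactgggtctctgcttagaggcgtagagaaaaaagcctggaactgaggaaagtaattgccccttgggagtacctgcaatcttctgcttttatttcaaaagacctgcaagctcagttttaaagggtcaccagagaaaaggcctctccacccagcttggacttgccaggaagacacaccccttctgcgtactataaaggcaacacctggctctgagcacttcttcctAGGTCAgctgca
Thrb, chr14:17981394-17981643, plus strand: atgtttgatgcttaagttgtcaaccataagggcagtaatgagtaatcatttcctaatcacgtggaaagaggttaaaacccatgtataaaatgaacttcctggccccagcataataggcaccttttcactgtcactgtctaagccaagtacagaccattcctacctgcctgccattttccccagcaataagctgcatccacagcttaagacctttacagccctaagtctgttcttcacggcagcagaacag
Ppargc1a, chr5:51567726-51567975, minus strand: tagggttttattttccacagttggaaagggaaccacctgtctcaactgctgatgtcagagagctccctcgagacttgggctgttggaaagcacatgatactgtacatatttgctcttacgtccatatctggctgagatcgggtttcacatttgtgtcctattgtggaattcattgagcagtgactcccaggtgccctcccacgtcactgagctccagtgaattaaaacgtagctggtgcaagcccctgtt

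The Gpr22 window was in state 6 in C57BL/6J, DBA/2J, NOD/ShiLtJ and NZO/HlLtJ and in state 14 in the other 5 strains. The Serpinb1c window was in state 6 in C57BL/6J, CAST/EiJ and NZO/HlLtJ. The Thrb window was in state 6 in 129S1/SvImJ, A/J, C57BL/6J, DBA/2J and NZO/HlLtJ. At Ppargc1a, the switching bin was 1 of the 2 bins of the window and held the start site. It was in state 6 in A/J, CAST/EiJ, NZO/HlLtJ and WSB/EiJ. No pair of these promoters shared its set of strains. In the printed 250 bases, GC was 39.6% at Gpr22, 47.6% at Serpinb1c, 44% at Thrb and 48% at Ppargc1a, and the dinucleotide CG occurred 1, 2, 2 and 5 times.

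Promoters with a switching bin were poor in CG. The median promoter window with a switching bin held 4 CG and 46.3% GC, against 7 CG and 53% GC over all 31396 windows. Among protein-coding promoters alone, the 93 with a switching bin had medians of 3 CG and 45.3% GC, against 14 CG and 57% GC over all 20085. The mean over all protein-coding promoters, 15.7 CG, lay above those of both state 6 groups compared next. Low CG was thus not particular to switching promoters. In a comparison within state 6, each strain's protein-coding promoters with switching state 6 bins were set against its other promoters with a state 6 bin, on average 43.8 against 419 promoters. The switching ones held 4.27 ± 0.684 CG and the others 9.61 ± 1.00, a difference of -5.33 ± 1.34 that was below 0 in 9 of 9 strains (p = 0.0039 in a two-sided exact sign-flip permutation test, the smallest it can give with n = 9, adjusted p = 0.0052 over 12 tests). GC was 46.6% ± 1.52 against 52.9% ± 1.03, lower by -6.32 ± 1.90 percentage points in 9 of 9 strains (p = 0.0039 in the same exact test, adjusted p = 0.0052). This pair of tests was chosen with the data already seen. At a switching bin the rule asks for the most widespread state in several strains and allows no state besides it and state 6. At their state 6 bins, the other promoters could have further states in the remaining strains. The tests therefore cannot separate switching from this choice of bins, whose part in the differences was not tested. The groups did not overlap in CG: the highest strain mean of the switching promoters was 5.06 and the lowest of the others 7.75.

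Short motifs of liver transcription factors were counted in the 300 bases on both strands, as letters and not as binding sites. AGGTCA was in 25.5% of the 247 promoters with a switching bin and in 16.3% of all promoters. The HNF1 letters GTTAAT were in 10.9% and 7.12%, and TGTTTAC or TATTTAC, the letters of FOXA factors, in 10.5% and 6.64%. HNF4A letters CAAAGTC were in 4.05% and 4.48%, and the CEBP letters TTGCGCA in 0.810% and 1.97%. Some motifs can overlap at their ends, such as AGGTCA and CAAAGTC over the letters CA, and the counts were not corrected for this. Base composition differs between the sets as given above, with its part in these shares not tested.

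Switching bins also reached a few microRNA hairpins, 7 of 919 (0.762%), near the 0.689% of all autosomal bins that were switching bins. A hairpin can span more than 1 bin, so this share is not a result about microRNAs. The hairpin of miR-1961 lies in Shroom3, at chr5:92788451-92788562, in a bin with state 6 in 129S1/SvImJ, A/J, CAST/EiJ, DBA/2J, NOD/ShiLtJ and PWK/PhJ. Its mature form is shown because its seed, bases 2 to 8 in capitals, is found in 13 mature mouse entries, itself included, of which 11 are of the let-7 family. The hairpin of miR-744 lies in Map2k4, a kinase of the JNK pathway, at chr11:65734733-65734832. It spans 2 bins, of which 1 is a switching bin with state 6 in all laboratory strains except DBA/2J and in WSB/EiJ. Its mature forms are shown for comparison, and each of their seeds occurs in no other mature entry of the table.

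miR-1961: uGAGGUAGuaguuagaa
miR-744-5p: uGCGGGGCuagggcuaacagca
miR-744-3p: cUGUUGCCacuaaccucaaccu

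Most switches were short. Of the 73155 regions, 64773 were 1 bin long (88.5%), 5860 had 2 bins, 1990 had 3 and 532 had 4 or more, with the longest at 2800 bp. Regions often lay side by side with different strains in state 6: 21196 pairs of regions touched, and when the pattern was ignored the bins joined into 51959 runs, of which 34220 (65.9%) were 1 bin long, 1815 were 1 kb or longer and the longest was 4000 bp. Among switches of state 14 with other states chosen by the same rule, 49.3% of 69503 regions of states 4 and 14 were 1 bin long, 57.7% of 19177 regions of states 9 and 14, and 44.4% of 409502 regions of states 13 and 14. These counts are part of the choice of regions and were not tested.

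The sides of the regions show the same fine grain. Another switching region lay against 29.0% of the region sides, a bin with state 6 in 1 or 2 strains against 22.2%, a bin with state 14 in all strains against 20.05%, a bin with state 6 in 7 to 9 strains against 17.4%, and a bin with another state against 11.4%. In 33.8% of the regions, at least 1 side touched a bin with state 6 in 7 to 9 strains. In 13.7% both sides had state 6 in at most 2 strains. In 4.83% of the regions (3535) each state 6 strain had a segment of exactly the region's start and end, and in the rest at least 1 strain's segment ran on.

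Bins with only states 6 and 14 were counted by the number of strains in state 6. There were 101055 with 1 such strain, 43472 with 2, 27160 with 3, 21320 with 4, 18509 with 5, 17858 with 6, 19794 with 7, 23447 with 8 and 47462 with 9. The counts fell from 1 to 6 strains and rose again to 9, so the bins just inside the rule (27160 and 17858) lay between larger counts at 2 strains and at 7 strains. The part played by chance differences between segmentations was not tested, and replicate segmentations within a strain were not analysed here.

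Strains took unequal shares. A/J had state 6 in 58.5% of the switching bins, NOD/ShiLtJ in 57.9%, 129S1/SvImJ in 56.6% and NZO/HlLtJ in 55.0%. CAST/EiJ had it in 45.8%, C57BL/6J in 44.9%, PWK/PhJ in 38.9%, WSB/EiJ in 38.1% and DBA/2J in 36.1%. The first 4 strains stand together at 55.0% or more, apart from the other 5 at 45.8% or less. The order followed the strains' total of state 6 only in part. A/J (374549 bins) and NOD/ShiLtJ (352620) were highest in both. By contrast, 129S1/SvImJ had the fewest state 6 bins of all (276098) with the third highest share of the switching bins. DBA/2J had 313183, the third highest total, with the lowest share. Every chromosome held switches, from 0.569% of the bins of chromosome 7 to 0.872% of those of chromosome 19.

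**Figure D1:**
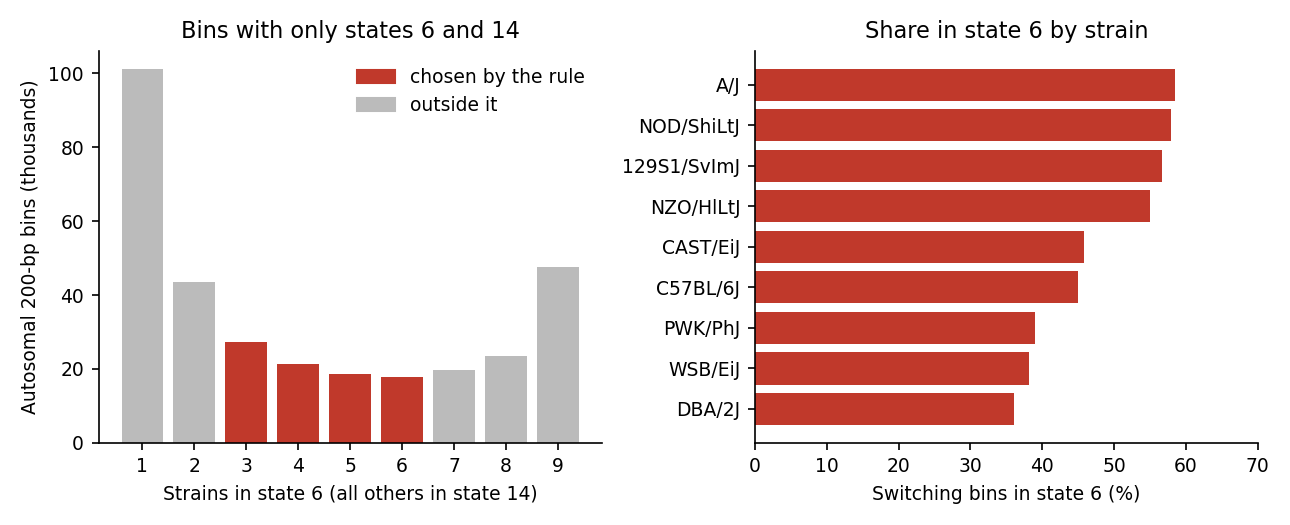
Left, autosomal 200-bp bins with only states 6 and 14, by the number of strains in state 6, with the bins chosen by the rule in red; right, percent of the switching bins that each strain had in state 6. The chosen bins fall from 27160 to 17858, and DBA/2J has the lowest share, 36.1%, and A/J the highest, 58.5%.

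All 420 strain patterns that the rule allows were seen, from 22 to 1163 regions each with a median of 139, and the 10 most frequent held 10.3% of the regions. The most frequent had state 6 in the 6 laboratory strains and state 14 in CAST/EiJ, PWK/PhJ and WSB/EiJ, in 1163 regions. Its opposite, state 6 in the 3 wild-derived strains only, had rank 6 with 688 regions. State 6 in 129S1/SvImJ, A/J and NOD/ShiLtJ alone came next with 867 regions, and its opposite was found in only 54. The remaining frequent patterns were state 6 in all but CAST/EiJ, DBA/2J and PWK/PhJ (813 regions, opposite 250), in all but these 3 and WSB/EiJ (761 regions, opposite 99), and in CAST/EiJ, NZO/HlLtJ and PWK/PhJ alone (705 regions, opposite 367). In each of these patterns CAST/EiJ and PWK/PhJ were on the same side.

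Pairs of strains agreed in 47.4% ± 4.20 of the switching bins (SD over 36 pairs), a mean that the rule fixes through the number of strains in each state. CAST/EiJ and PWK/PhJ agreed most, in 58.1%, followed by A/J and NOD/ShiLtJ in 55.9% and 129S1/SvImJ and A/J in 53.5%. A/J and PWK/PhJ agreed least, in 39.9%. The order was not that of the 5405221 other autosomal bins that at least 1 strain had outside state 14: there CAST/EiJ and PWK/PhJ agreed in 57.9%, rank 32 of 36, and C57BL/6J and DBA/2J had rank 1 with 73.8%. The other bins include states held by only 1 or 2 strains, which the rule removes from the switching bins. PWK/PhJ had the lowest mean agreement in the other bins, 56.8%. Both ranks were thus taken over unlike sets of bins. Across the 36 pairs the rank correlation of both measures was 0.61, given as a description because pairs share strains.

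**Figure D2:**
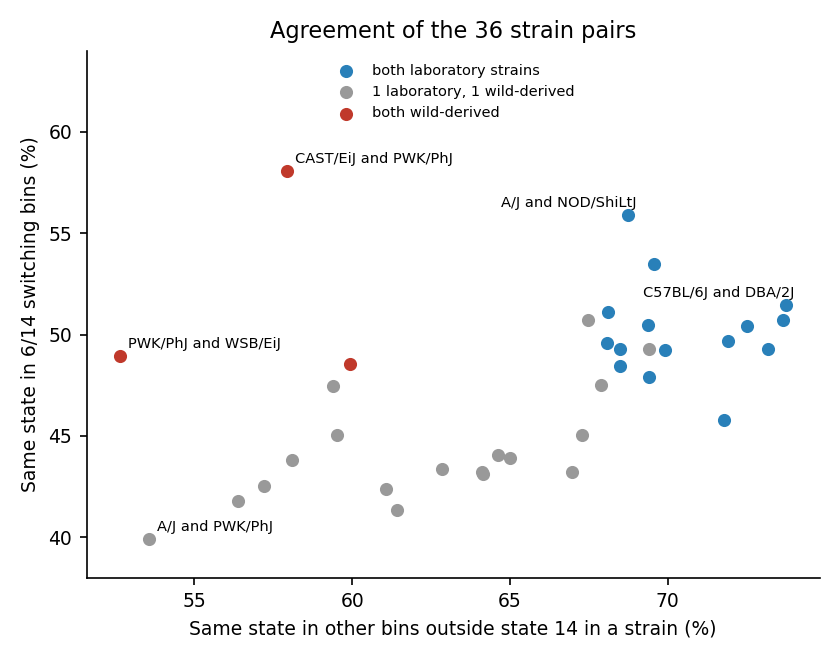
Each point is 1 of 36 strain pairs, with the percent of the other autosomal bins outside state 14 in at least 1 strain that were in the same state on the horizontal axis and the percent of switching bins in the same state on the vertical axis; colours give how many of the pair are wild-derived. The pair of CAST/EiJ and PWK/PhJ stands at 58.1% on the vertical axis with 57.9% on the horizontal one.

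The longest region, chr1:139632001-139634800 (build mm10), lay inside Cfhr3, a complement factor H-related gene, 26.2 kb from the nearest listed start site. It was in state 6 in A/J, CAST/EiJ, DBA/2J and PWK/PhJ, whose segments measured 4800, 7000, 4800 and 8200 bp and all ran past both ends of the region. The other 5 strains had state 14 segments of 6600 to 62600 bp there. In the 150 bins of the 30 kb around its centre, the 4 strains had 38, 41, 41 and 56 bins in state 6, and the other 5 had 0 to 6. Close copies of this gene lie nearby, so the reads behind these states may be split between copies.

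**Figure D3:**
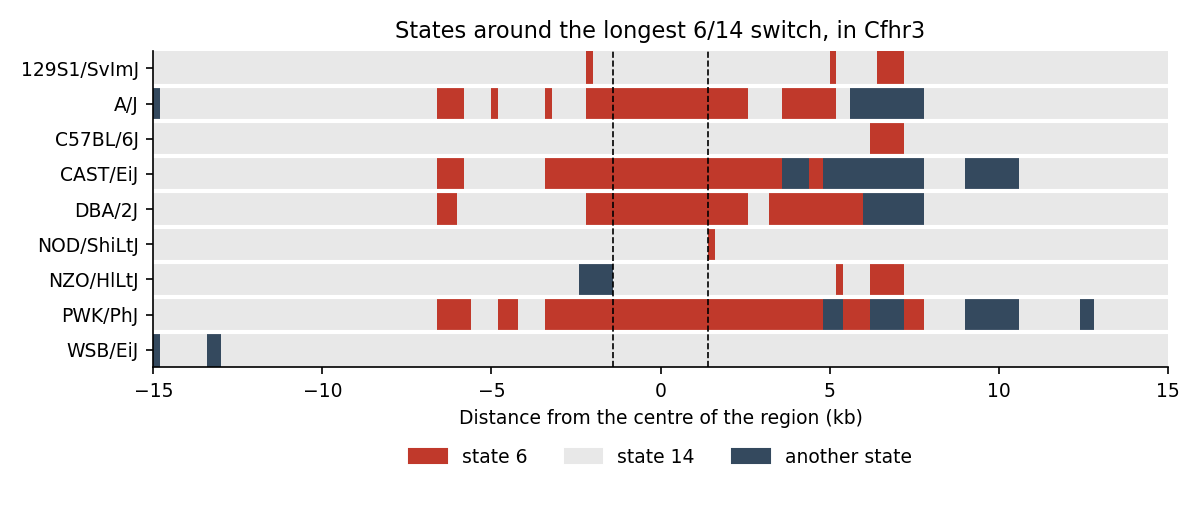
States of the 9 strains over 15 kb to each side of the centre of the longest region, in Cfhr3, with distance in kb on the horizontal axis and the region between dashed lines. A/J, CAST/EiJ, DBA/2J and PWK/PhJ have 38 to 56 of 150 bins in state 6 and the other strains 0 to 6.

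Further long regions lay in genes or far from any. A region of 2400 bp in Phf3, chr1:30827601-30830000, was in state 6 in A/J, DBA/2J and NOD/ShiLtJ, and the other 6 strains each had a state 14 segment of 15600 to 23600 bp across it. In Ptprd, a receptor-type tyrosine phosphatase, chr4:76030601-76032400 was in state 6 in 129S1/SvImJ, A/J, CAST/EiJ, DBA/2J and PWK/PhJ. All 5 segments began at base 76030601 and ended 1800 to 2400 bp later, while the other 4 strains had state 14 over 69200 to 91200 bp. In Nrg3, which encodes a neuregulin, chr14:38658401-38660200 was in state 6 in 6 strains whose segments all began at base 38658401. The 3 others, CAST/EiJ, NZO/HlLtJ and PWK/PhJ, had state 14 over 6000 to 53600 bp.

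Short segments of state 14 were seen at other long regions. In Tmem135, which codes for a membrane protein of peroxisomes and mitochondria, chr7:89293201-89295000 was in state 6 in A/J, C57BL/6J, NOD/ShiLtJ and WSB/EiJ. There the state 14 segments of the other 5 strains were only 2800 to 3200 bp long and lay between segments of states 2, 6 or 8. In Slc25a17, a carrier of the peroxisome membrane, chr15:81354001-81355600 lay 5.17 kb from the start site and was in state 14 in CAST/EiJ, NZO/HlLtJ and WSB/EiJ, over 1600 to 2400 bp. At these 2 regions the state 14 segments were at most 3200 bp long, whereas at Ptprd and Nrg3 they were 6000 bp or longer.

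Several long regions had no gene over them. The region chr4:56067001-56069000, in state 6 in A/J, C57BL/6J, NOD/ShiLtJ and WSB/EiJ, was 534.53 kb from the nearest protein-coding gene, Klf4, a zinc finger transcription factor. In all 5 state 14 strains a state 6 segment began at its right edge or 200 bp beyond. The region chr1:185822401-185824000 was 263.73 kb from Lyplal1 and in state 6 in all strains except 129S1/SvImJ, CAST/EiJ and PWK/PhJ. The region chr11:27898401-27900000, 485.68 kb from Ccdc85a, was in state 6 in 129S1/SvImJ, C57BL/6J and WSB/EiJ with the same 1600 bp segment in each. The longest region of the most frequent pattern, chr5:42453601-42455200, also had 1 segment of 1600 bp with the same ends in all 6 laboratory strains, and the 3 wild-derived strains had state 14 over 17600 to 19000 bp.

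The longest regions of the other frequent patterns lay in or near genes. In Sgk3, a kinase related to AKT, chr1:9859801-9860800 was in state 6 in 129S1/SvImJ, A/J and NOD/ShiLtJ. In Suclg2, a subunit of succinate-CoA ligase of the citric acid cycle, chr6:95486801-95488000 was in state 6 in 5 laboratory strains, with all 5 segments beginning at base 95486801. DBA/2J and the wild-derived strains had state 14 there over 16200 to 54200 bp. In Mob1a, an adaptor of the Hippo pathway, chr6:83337401-83338800 was in state 6 in CAST/EiJ, NZO/HlLtJ and PWK/PhJ, with segments of 1400 to 1600 bp. The region chr7:65609601-65610600 lay in the gene BC046251, 34.3 kb from the protein-coding gene Tarsl2, and all its 6 state 6 segments began at base 65609601.

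Switching segments of state 6 mostly stood alone in state 14. Of a strain's 23920 ± 3524 state 6 segments with a switching bin, 74.8% ± 2.17 had state 14 on both sides, against 45.0% ± 2.66 of its 66043 ± 5547 other state 6 segments. State 14 on 1 side was found in 22.6% ± 1.51 against 38.6% ± 1.68, and on neither side in 2.58% ± 0.699 against 16.4% ± 1.71. Of the sides of switching segments, 7.37% met state 2, 3.03% state 4 and 2.59% state 8, against 19.5%, 7.00% and 6.31% for the other segments. Switching segments were also longer, with a median of 600 bp in every strain against 400 bp. A segment counted as switching if it held any switching bin, and a longer segment has more bins that can qualify. The choice itself thus favours longer segments. The rule asks for state 14 in other strains at the same bins, so these values are a description.

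In strains with state 14 at a region, another state was often close. The nearest bin outside state 14 was within 400 bp in 57.9% ± 5.44 of the cases, and the median state 14 segment was 8844 ± 1212 bp long. For the flanks, bins that were themselves switching bins were left out, and another switching region lay against 29.0% of the region sides. Of the remaining bins next to the region (0 to 0.2 kb), 50.7% ± 2.76 were outside state 14 where the strain had state 6. Where it had state 14, 22.0% ± 2.36 were. At 1 to 2 kb these shares were 22.6% ± 2.58 and 17.8% ± 1.69. The contrast thus shrank from 28.7 to 4.84 percentage points within 2 kb, a span that a single segment can cover.

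Farther out, at 5 to 10 kb and again without switching bins, the share outside state 14 was 26.6% ± 2.09 with state 6 at the region. It was 24.7% ± 1.73 with state 14. The difference of 1.94 ± 3.21 percentage points was above 0 in 8 of 9 strains and did not pass the test (p = 0.1133 and adjusted p = 0.1133, exact sign-flip permutation test, n = 9). WSB/EiJ stood apart with -6.09, and the other strains ran from 1.29 in CAST/EiJ to 4.34 in DBA/2J. Without WSB/EiJ the difference was 2.94 (p = 0.0078, exact test, the smallest that 8 strains allow). With switching bins kept in the flanks, the difference over all 9 strains was 2.36 (p = 0.0625, exact test).

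Nearby regions tended to switch in the same strains. Among pairs of regions less than 1 kb apart but not touching, 5.54% had an identical pattern, and on average 6.24 of 9 strains were in the same state at both. Identical patterns made up 2.16% at 1 to 5 kb, 1.34% at 10 to 50 kb, 0.751% at 100 to 500 kb and 0.408% at 5 to 10 Mb, against 0.386% on different chromosomes. Exactly opposite patterns took the other course, from 0.0264% under 1 kb to 0.282% at 0.5 to 1 Mb and 0.237% on different chromosomes. The pairs share regions and strains, so these shares are a description. A single segment can reach over both regions of a close pair.

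**Figure D4:**
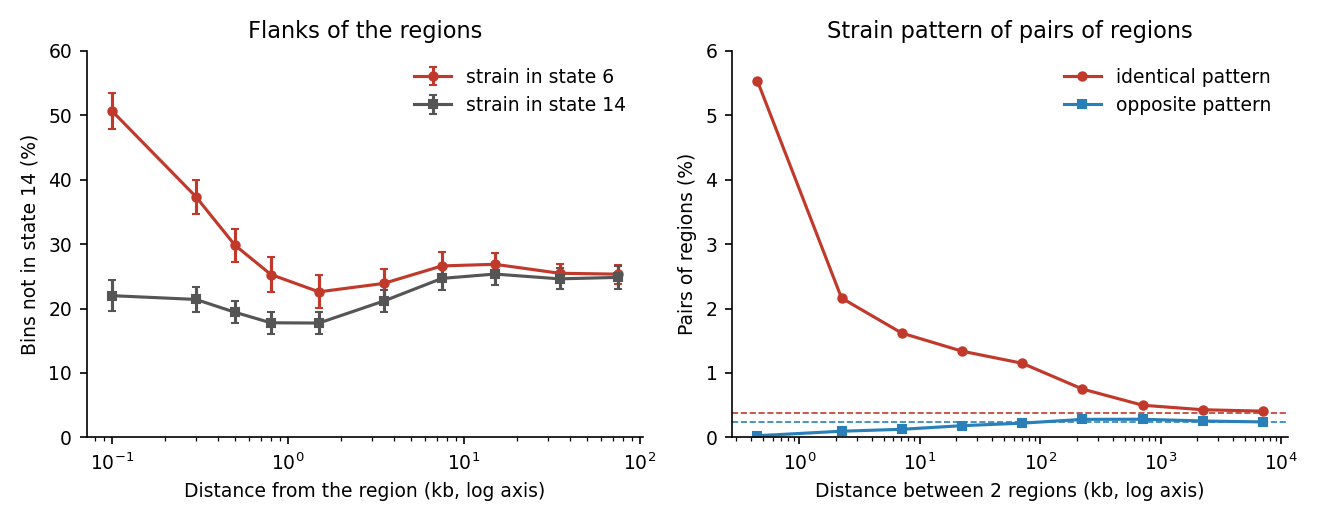
Left, mean percent of bins outside state 14 by distance from the regions (log axis, kb) in strains with state 6 or state 14 at the region, with bars of 1 SD over 9 strains; right, percent of pairs of regions with an identical or an opposite strain pattern by distance (log axis, kb), with dashed lines at the values for different chromosomes. Switching bins are left out of the flank curves, which start at 50.7% and 22.0% and stand at 25.3% and 24.8% at 50 to 100 kb. Identical patterns fall from 5.54% to 0.408%.

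Gene position was not used to choose the regions, so it could be tested. Of a strain's switching state 6 bins, 64.5% ± 3.21 lay in bodies of protein-coding genes, from 57.1% in WSB/EiJ to 67.6% in 129S1/SvImJ. Of its other state 6 bins 70.3% ± 1.96 did, from 66.9% in CAST/EiJ to 72.8% in C57BL/6J. The ranges overlap slightly between strains, but within each of the 9 strains the switching bins were lower, by -5.79 ± 3.68 percentage points (p = 0.0039, adjusted p = 0.0056 over 10 tests, two-sided exact sign-flip permutation test). All autosomal bins together had 40.0% in gene bodies, so both kinds of state 6 bins lay in genes more often than the genome.

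The direction depended on the length of the regions. In regions of at least 2 bins, the switching state 6 bins were in gene bodies more often than all other state 6 bins, by 4.59 percentage points (p = 0.0195 in the exact test, n = 9). By length, 61.4% of the bins of 1-bin regions were in gene bodies, 73.5% of those of 2-bin regions, 77.1% of those of 3-bin regions and 68.6% of those of longer ones. Over bins with only states 6 and 14, the share rose with each further strain in state 6, from 36.1% with none and 55.8% with 1 strain through 62.4% with 3 and 67.0% with 6 to 78.9% with all 9. The switching bins lay in the middle of this series. The share of bins more than 5 kb from a protein-coding gene ran the other way, from 39.5% with 1 strain in state 6 to 18.5% with 9.

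More than 5 kb from any protein-coding gene lay 31.5% ± 2.92 of the switching state 6 bins and 24.8% ± 1.89 of the others. The difference of 6.70 ± 3.60 percentage points was above 0 in 9 of 9 strains (p = 0.0039, adjusted p = 0.0056, exact sign-flip permutation test), and the lowest strain of the switching bins, at 28.5%, was above the highest of the others, at 28.05%. In regions of at least 2 bins the difference was -2.84 (p = 0.0703, exact test). Start sites gave a difference too: within 1 kb of a start lay 0.470% ± 0.0535 of the switching state 6 bins and 0.838% ± 0.0649 of the other state 6 bins, a difference of -0.368 ± 0.0933 that was below 0 in 9 of 9 strains (p = 0.0039, adjusted p = 0.0056, exact sign-flip permutation test). The strain ranges of 0.415% to 0.574% and 0.712% to 0.939% did not overlap. All autosomal bins had 1.48% there. The other state 6 bins include bins where some strains had states besides 6 and 14. The rule keeps such bins out of the switching ones. Over bins with only states 6 and 14, the share near starts was 0.4345% with no strain in state 6. It was 0.534% with 3 strains, 0.385% with 6 and 0.386% with all 9. The low share near starts was thus not particular to switching bins.

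Compared with other kinds of switch against state 14, those of state 6 lay in gene bodies more often. Bins in state 4 at switches of states 4 and 14 were in gene bodies in 55.9% ± 7.13, lower than the switching state 6 bins by 8.58 ± 7.32 percentage points in 8 of 9 strains (adjusted p = 0.0217, exact sign-flip permutation test). NZO/HlLtJ was the exception, with 72.3% for state 4 and 65.8% for state 6. State 9 at switches of states 9 and 14 gave 56.0% ± 3.67, so state 6 was higher by 8.48 ± 5.05 points in 8 of 9 strains, all but WSB/EiJ (adjusted p = 0.0098, same exact test). State 13 gave 33.3% ± 2.09, so state 6 was higher by 31.2 ± 4.21 points in 9 of 9 strains (adjusted p = 0.0056, same exact test).

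At start sites state 6 was the lowest of the 4. Within 1 kb of a start lay 0.750% ± 0.0572 of the state 4 bins, 4.07% ± 4.12 of the state 9 bins and 0.867% ± 0.0871 of the state 13 bins of such switches, each above the 0.470% of state 6 in 9 of 9 strains (adjusted p = 0.0056 for each, exact sign-flip permutation test). The state 9 value rested in part on PWK/PhJ, with 14.8% against at most 4.26% elsewhere. Without PWK/PhJ the difference from state 9 went from -3.60 to -2.25 percentage points.

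**Figure D5:**
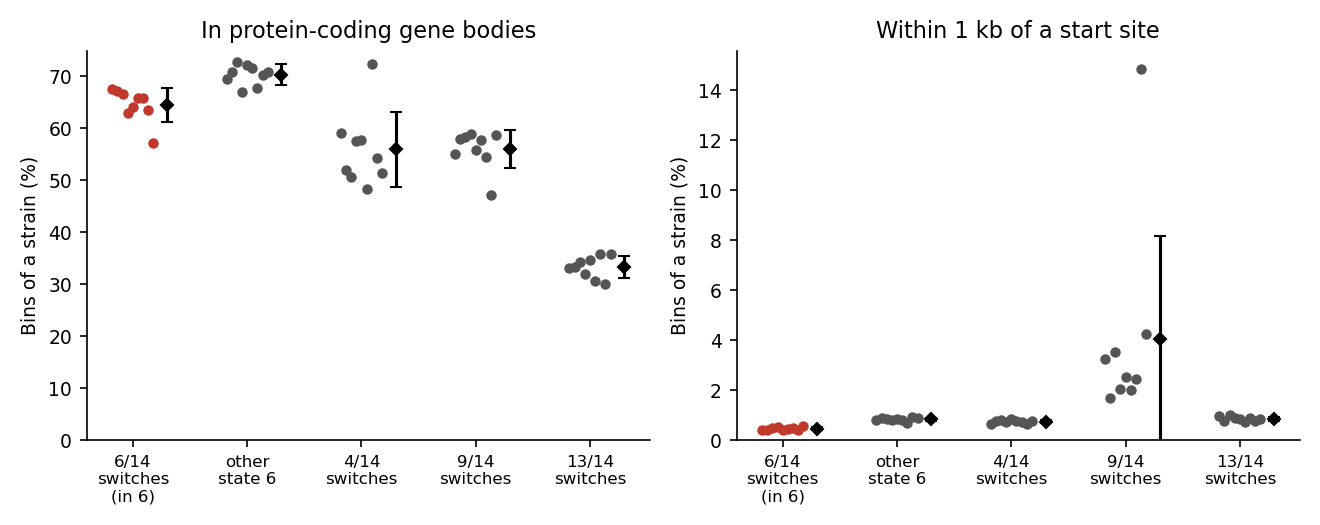
Percent of each strain's bins in protein-coding gene bodies (left) and within 1 kb of a start site (right), for state 6 at its switches with state 14, for other state 6 bins, and for states 4, 9 and 13 at their switches with state 14; points are strains, diamonds and bars the mean and 1 SD. Switching state 6 bins average 64.5% in gene bodies and 0.470% near start sites.

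Among 20665 autosomal protein-coding genes, 6726 (32.5%) held a switching bin in the body and 9659 (46.7%) in the body or within 10 kb. The genes with most switching bases were long, from 268 kb to 2271 kb. Dpyd, which codes for dihydropyrimidine dehydrogenase, the first enzyme of uracil and thymine breakdown, held most with 68200 bp in 276 regions. Of its 341 switching bins, state 6 was in 257 in NOD/ShiLtJ, 205 in NZO/HlLtJ and 98 in DBA/2J, down to 67 in CAST/EiJ. Immp2l, a peptidase subunit of the inner mitochondrial membrane, had 56400 bp in 228 regions, and the 1 Mb window with most regions, 235, lies over it. A/J had state 6 in 225 of its 282 bins and DBA/2J in 49.

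Camk1d, a calcium/calmodulin-dependent protein kinase gene at chr2:5293457-5714860, differed from the others in the unevenness of the strains. It held 243 switching bins in 141 regions. NOD/ShiLtJ had state 6 in 233 of them, C57BL/6J in 231, NZO/HlLtJ in 222 and A/J in 178. DBA/2J had it in 98 and 129S1/SvImJ in 87, whereas WSB/EiJ had it in 10, CAST/EiJ in 2 and PWK/PhJ in 1. The 3 wild-derived strains were thus all below the 6 laboratory strains, by 10 against 87 bins at the nearest.

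The other long genes were mixed. Ptprd had 249 switching bins, with state 6 in 79 in DBA/2J and PWK/PhJ to 170 in NZO/HlLtJ. Zbtb20, a zinc finger repressor that silences alpha-fetoprotein in adult liver, had 224, with 179 in A/J and NZO/HlLtJ, 38 in WSB/EiJ and 39 in DBA/2J. Magi1, a scaffold of cell junctions, had 219 (54 in C57BL/6J to 150 in A/J). Ptprk, another receptor-type tyrosine phosphatase, had 213 (44 in DBA/2J to 164 in A/J).

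Adk, the adenosine kinase, had 168 switching bins, and PWK/PhJ was highest there with 135, against 22 in CAST/EiJ. Tcf12, a transcription factor of the basic helix-loop-helix class, had 161 (27 in WSB/EiJ to 120 in A/J). Chchd3, a protein of the inner mitochondrial membrane, had 154 (47 in PWK/PhJ to 117 in A/J). Sox6, a transcription factor of the SOX family, had 149 (42 in PWK/PhJ to 103 in A/J). Fhit, a hydrolase of dinucleoside polyphosphates, had 145, with CAST/EiJ at 88 and NZO/HlLtJ and WSB/EiJ at 106 above C57BL/6J at 33. A/J had the highest count alone in 6 of these 12 genes and NZO/HlLtJ shared it at Zbtb20. A/J also had the highest share of state 6 over all switching bins, 58.5%, so this count is not particular to these genes.

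By share of the body, smaller genes came first. Of genes of 10 kb or more, Ssr3, a subunit of the translocon-associated complex of the endoplasmic reticulum, had 21.7% of its body in switching bins. C57BL/6J had state 6 in 14 of the 14 bins, PWK/PhJ in 13 and WSB/EiJ in 1. In 2010315B03Rik (20.1%), A/J and NOD/ShiLtJ had state 6 in 21 of 21 bins and DBA/2J and WSB/EiJ in 0. In Tmem64 (20.1%), A/J had it in 21 of 21, NOD/ShiLtJ in 20 and PWK/PhJ in 0. In Lrrc58 (18.6%) CAST/EiJ and PWK/PhJ had it in 19 of 19 bins and A/J in 0, the reverse of A/J's place in Tmem64.

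The rest of the 10 genes included Zfp961 (20.7%), a zinc finger gene, with 17 of 20 bins in CAST/EiJ and 1 in DBA/2J. Atp5pb (20.5%), subunit b of the mitochondrial ATP synthase, had 16 of 17 in A/J and C57BL/6J and 1 in WSB/EiJ. Dstn, the actin-depolymerising protein destrin, had 28 of 28 in NOD/ShiLtJ and 3 in PWK/PhJ. Raly (18.2%), an RNA-binding protein, had 61 of 73 in NOD/ShiLtJ and 6 in WSB/EiJ. Rbm39 (18.2%), a splicing regulator, had 26 of 30 in PWK/PhJ and 9 in CAST/EiJ, DBA/2J and WSB/EiJ. Nptn (17.8%), a cell adhesion glycoprotein, had 46 of 63 in 129S1/SvImJ and 5 in DBA/2J and WSB/EiJ. In 7 of the 10 genes the strain with the lowest count had at most 3 bins in state 6.

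The 8 lists of 25 genes were then read, with the 46.7% of all genes within 10 kb of a switching bin as background. The lists differ in gene length: the median was 10.1 kb for secreted liver proteins, 4.89 kb for developmental regulators and 6.76 kb for widely expressed genes, against 17.5 kb for all genes. Of the genes of secreted liver proteins, 5 of 25 had a bin within 10 kb (Apob, Apoh, Hpx, Serpina1a and Serpinc1, with 1 to 3 bins each) and none in the body. Hepatocyte transcription factors had 8 of 25 within 10 kb, led by Onecut2 with 15 bins, Cux2 with 14 and Gata4 with 8. Hnf4a, Foxa1 and Cebpb each had 1 bin, outside the body. Cux2, a factor known for higher expression in female liver, had state 6 in 13 of 14 bins in C57BL/6J and CAST/EiJ and in 0 in NZO/HlLtJ.

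By count of genes, lipid and drug metabolism came closer to the background than secreted proteins and transcription factors did, but stayed below it. By share of body bases, lipid (0.382%) and drug metabolism (0.374%) lay below transcription factors (0.668%) and all genes (1.10%). Secreted proteins had 0%. Lipid metabolism had 10 of 25, with 10 bins at Acaca, the acetyl-CoA carboxylase of fatty acid synthesis, and at Cd36, a fatty acid transporter. Cd36 was in state 6 in 9 of these 10 bins in A/J and CAST/EiJ and in 0 in DBA/2J. Cyp7a1, the rate-limiting enzyme of bile acid synthesis, had 2 bins outside the body. Drug metabolism had 9 of 25, with 6 bins at Cyp2c37 and Cyp3a13 and 5 at Cyp2b10, all members of cytochrome P450 families whose close copies make the reads behind their states uncertain.

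The list of the insulin and growth hormone axis had most, 15 of 25, but its median gene was also longest, 49.3 kb against 17.5 kb for all genes. In this list 0.747% of the body bases were in switching bins, against 1.10% over all genes, so its high count of genes did not come with a high density. Ghr, the growth hormone receptor, held 48 bins in 31 regions, with state 6 in 33 in DBA/2J, 31 in A/J and 14 in WSB/EiJ. DBA/2J, lowest over all switching bins, was highest there. Ppargc1a had 12 bins in the body or within 10 kb, with state 6 in 2 in NZO/HlLtJ to 9 in WSB/EiJ.

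Reference lists also lay below the background by count of genes, as did lipid and drug metabolism. Markers of other liver cell types had 9 of 24 genes with a position, of which Reln, a marker of stellate cells, had 26 of the 40 bins. Developmental regulators had 4 of 25 with 6 bins in all (Gsc, Lhx2, Pax6 and Tbx5), and 0.0826% of their body bases. Widely expressed genes had 7 of 23 with a position, yet 1.80% of their body bases, led by Cltc, the clathrin heavy chain, with 10 bins and Cdc42, a small GTPase, with 8. Counts of genes and of bases therefore ranked the lists differently.

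Switching bins made up 0.689% of all autosomal bins, and a window of 1 kb to each side of a start spans several bins. The share of genes given next is therefore not a result about start sites. Of 16457 protein-coding genes with a listed start site, 252 (1.53%) had a switching bin within 1 kb of it. Most such bins were held by Ncoa6, a nuclear receptor coactivator, with 7, then by Ktn1, the kinesin receptor kinectin, and Spag9, a scaffold of JNK signalling, with 6 each, by Ppfia4, a liprin, with 5, and by Thrb among those with 4. These genes were picked after their values had been seen. In the 8 lists, Ppargc1a was the one gene with a listed start that had any.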

How the data were processed

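The members and the gene lists were chosen with earlier results of these data known. The authors deposited 1 segmentation per strain; its column 4 is a state number from 1 to 14, a category and not a count, signal or score, per the file headers. Build mm10, FastQC 0.11.5 and MACS 1.4.2 come from the submitters' processing notes. The segmentation tool, the depth and the marks of each state are not given in the sources used here, so no counting error can be given. The mouse reference was assembled from C57BL/6J, and what this does to the states of other strains was not tested. A file that joins the strains was byte for byte the strain files end to end and was not used.

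Samples were grouped by the strain in their labels. States were written per 200-bp bin of chromosomes 1 to 19. Gene positions, promoters and microRNAs came from RefSeq tables of GRCm38.p6. A bin was in a gene where its middle was. Chromosome 18 had no listed start sites and was left out of start-site measures. Per strain, shares of switching state 6 bins were set against the strain's other state 6 bins, and against the non-14 bins of switches of states 4, 9 and 13, by exact sign-flip permutation of the 9 strain differences, two-sided (512 sign patterns) and Benjamini-Hochberg adjustment over 10 tests, at a threshold of 0.05. The promoter comparison was added later, adjusted over 12 tests. The named regions were the 10 longest and the longest of each of the 5 most frequent patterns. The named genes were the 12 with most switching bases, the 10 of at least 10 kb with the largest share, and list genes with a switching bin at a start site; others were picked after their values were seen. Alternatives were another minimum of strains, a minimum length, all annotated genes, other windows and each strain left out. The planned base composition test of the regions was not run, since it needs a genome. The code ran under Python 3.11.15 with pandas 2.3.3, scipy 1.17.1, matplotlib 3.10.9 and numpy 2.4.6, and was tested on simulated data.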

Additional observations from a re-analysis of the deposited data

Results flagged for a closer look

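In 39 sets of 9 strain values, the lowest or highest strain was checked for a gap to its neighbour of more than 0.493 of the whole range. The gap was larger in 5 sets, where chance gives about 1 in 20 sets, or 1.95 of these 39. WSB/EiJ was low in the difference at 5 to 10 kb from the regions (-6.09, next 1.29) and in the gene body difference from switches of states 13 and 14 (21.3, next 29.4). NZO/HlLtJ was low in the gene body difference from switches of states 4 and 14 (-6.46, next 5.37). PWK/PhJ was low in the start-site difference from switches of states 9 and 14 (-14.4, next -3.68). CAST/EiJ had the lowest share of state 6 segments without a switch that had state 14 on 1 side only (34.5%, next 37.8%).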

How the results depend on the processing

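Results turned around only where regions of 1 bin were left out: the gene body difference from other state 6 bins became 4.59 and the difference in bins more than 5 kb from genes -2.84. The difference at 5 to 10 kb from the regions passed the test at 2.91 (p = 0.0312, exact sign-flip permutation test, n = 9) when each state was asked for in at least 2 strains, and ranged from 1.64 to 2.94 with 1 strain left out, the latter without WSB/EiJ. The number of regions was 124178 with at least 2 strains per state, 34671 with at least 4, 8382 with at least 2 bins and 59996 to 63025 when the rule was applied to 8 strains. Genes within 10 kb of a switching bin were 3039 with regions of at least 2 bins. Of the 168 values recomputed, the other 44 under planned settings and 116 with a strain left out kept their direction and their side of 0.05, or a count within 1.5 times. No paired analysis was possible because the segmentation of a strain combines its numbered mice, so mice cannot be paired by number across strains; the tests above already compare bins within each strain. The depth behind the states is unknown, so no limit from it can be given, and single bins, most of the regions, are the finest step the files hold.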

Other observations

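On chromosome X, which the rule left out, the same choice of bins gave 39 regions of 56 bins, 0.00655% of its bins. The share of chromosome X in state 6 is not given here, so this is not a measure of how alike the strains were there. In the 1 Mb windows of the autosomes, 2400 of 2473 held a switching region, with a median of 25 regions. In some windows of at least 20 regions a single set of strains recurred. At chr7:37000001-38000000, 129S1/SvImJ had state 6 in 100% of 20 regions, NOD/ShiLtJ in 95% and A/J in 85%, and the other 6 strains in at most 40%. At chr15:47000001-48000000, A/J had state 6 in 100% of 21 regions and 129S1/SvImJ and WSB/EiJ in 95.2%, while DBA/2J and NZO/HlLtJ had it in 0%. At chr10:114000001-115000000, 17 of 55 regions had the pattern of state 6 in 129S1/SvImJ, CAST/EiJ, PWK/PhJ and WSB/EiJ alone. These windows were picked for their high share of 1 pattern, after their values had been seen.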
